A study of Mus musculus with 6 samples.

Results

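Respiratory complex I, the NADH:ubiquinone oxidoreductase of the inner mitochondrial membrane, was followed through the nuclear genes that encode its subunits and its dedicated assembly factors. The members were the protein-coding genes whose GENCODE symbols begin with Nduf followed by a, b, c, s, v, ab or af and a number, leaving out Ndufa4l2. This rule chose 45 of the 48709 genes in the table, of which 37 encode subunits and 8 (Ndufaf1 to Ndufaf8) encode assembly factors. Pseudogenes, a non-coding gene and Ndufa4l2 accounted for the other 6 symbols that matched. All 45 members passed the filter on low counts.

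Polyadenylated RNA was sequenced from G1E-ER4 cells, a mouse erythroid line derived from embryonic stem cells that carries the transcription factor GATA1 fused to the estrogen receptor, so that tamoxifen releases GATA1 activity and starts maturation. The labels call the cells immature erythroblasts. Both groups of 3 libraries were given a peptide joined to Tat, a short carrier that takes cargo into cells, at 10 μM for 2 h before 28 h of tamoxifen. In CHD4-APR the peptide copied an aggregation-prone region of the chromatin remodeler CHD4, and in CTRL it was a stretch of alanines. Both groups therefore share the line, the fusion protein, the carrier and the tamoxifen, whose concentration the labels give in 2 ways. Every library comes from the same line, and nothing says whether the libraries of a group were separate cultures, so p-values measure the spread between these libraries, which may be technical.

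The libraries held 41687482 to 49784177 counts in CTRL and 41945739 to 46888804 in CHD4-APR. Chd4 RNA stood at 231 ± 5.35 CPM (normalized read counts, scaled to library size) in CTRL and 240 ± 2.56 CPM in CHD4-APR (SD, n = 3; log2 fold change 0.05, adjusted p = 0.322, edgeR quasi-likelihood test), which checks no label, since a peptide does not remove the gene. All 12 erythroid markers were present, with summed levels of 71800 to 77100 CPM in CTRL and 61300 to 65400 CPM in CHD4-APR. Of 13 markers of B, T, myeloid, megakaryocyte, endothelial and fibroblast cells, 12 were under 1 CPM in every library and between 7 and 9 were at 0. The exception, the megakaryocyte integrin Itga2b, lay between 30.8 and 36.9 CPM.

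Complex I takes electrons from NADH, passes them along a chain of iron-sulfur clusters to ubiquinone, and pumps protons out of the matrix. It is L-shaped: a matrix arm holds the NADH and quinone sites, and a membrane arm holds the proton pumps. Its core is conserved from bacteria. The pumping core subunits are encoded by mitochondrial DNA, whereas the nucleus encodes the core of the matrix arm and a large shell of accessory subunits. Assembly factors build the arms and leave the finished enzyme. Maturing erythroblasts use mitochondria for heme synthesis and later clear them.

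RNA for the complex I subunits was lower in CHD4-APR than in CTRL for nearly every gene. Of the 37 subunit genes, 34 fell at an FDR under 0.05, none rose, and Ndufs1, Ndufc2 and Ndufb6 did not pass, where 17.8% of the 12722 genes tested fell and 20.4% rose. The changes were small and similar in size. Their median log2 fold change was -0.25, which is 15.9% lower, with a middle 50% between -0.35 and -0.22, beside a median of -0.01 over all genes tested. With trends with exonic length and GC content removed, as described below, 24 fell (median -0.21), against 16.0% of all genes. With those of the principal transcript removed, 19 fell and Ndufc2 rose (median -0.13), where 13.1% of all genes fell and 9.96% rose. No member fell by 1.5-fold or more, a size that 0.747% of all genes reached with an FDR under 0.05 in that direction. In 35 of the 37 genes all CHD4-APR libraries lay below all CTRL libraries, as they did in 25.0% of all genes tested. In bulk RNA, fewer cells of a type and less RNA per cell cannot be told apart.

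Summed over the 37 subunit genes, the CTRL libraries held 4056, 3796 and 3764 CPM. The CHD4-APR libraries held 3157, 3226 and 3402 CPM. All CHD4-APR sums were thus below all CTRL sums, and the libraries within a group also differed in step: CTRL 1 was the highest of its group for 32 of the 37 genes, CHD4-APR 3 the highest of its group for 34, and CHD4-APR 1 the lowest for 28. With any single library left out, between 31 and 34 subunit genes fell and the median lay between -0.28 and -0.22. The 45 members together took 0.403%, 0.387% and 0.383% of the counts in CTRL and 0.331%, 0.338% and 0.352% in CHD4-APR.

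**Figure D1:**
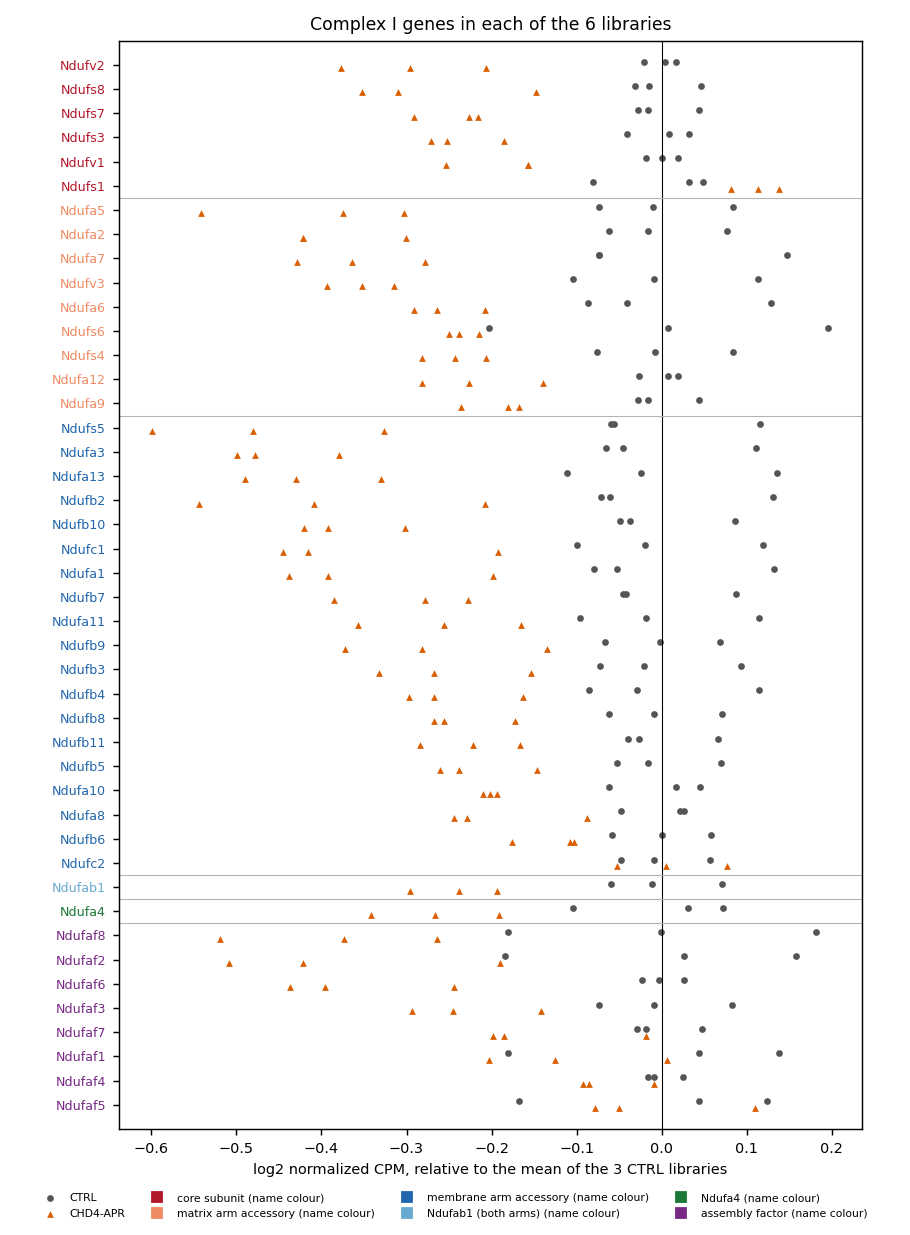
Normalized CPM of 44 of the genes in each library on a log2 scale, set to 0 at the mean of the 3 CTRL libraries of that gene (grey circles, CTRL; orange triangles, CHD4-APR; name colours give the role). The orange triangles lie to the left of every grey circle for 38 of them and to the right of them for Ndufs1.

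Promoter sequences were examined because the members moved together. RefSeq windows on GRCm38.p6, from 250 bases before to 50 bases after the transcription start, matched 40 of the 45 members by symbol. Each motif was searched as exact letters on both strands, and the spellings were chosen after several had been searched. NRF1 is a transcription factor known for activating respiratory chain genes. Its motif, GCGCA and GCGC with any 1 base between them, occurred in 9 of the 40 (22.5%), against 13.0% of 8505 tested genes with a window and 5.19% of all 27025. The matches before the start are printed in the direction of the gene with the motif in capitals, to show the flanks of each site and where it lies, the letters of the motif being fixed by the search. Ndufb4 held 3 of them. The matches of Ndufa8 and Ndufs6 are on the opposite strand, so their capitals show the reverse complement of the motif.
Ndufs5 (chr4:123718265-123718294, minus strand, outside the annotated gene): gctgcttgctGCGCAGGCGCagacccgctg
Ndufa5 (chr6:24527697-24527726, minus strand, in an annotated exon): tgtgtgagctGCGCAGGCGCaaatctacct
Ndufa11 (chr17:56717692-56717721, plus strand, outside the annotated gene): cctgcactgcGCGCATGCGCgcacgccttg
Ndufa8 (chr2:36049349-36049378, minus strand, in an annotated exon): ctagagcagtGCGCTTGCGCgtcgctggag
Ndufb4 (chr16:37654540-37654569, minus strand, outside the annotated gene): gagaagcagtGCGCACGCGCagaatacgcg
Ndufb4 (chr16:37654428-37654457, minus strand, in an annotated exon): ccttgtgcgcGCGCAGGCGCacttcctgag
Ndufb4 (chr16:37654371-37654400, minus strand, in an annotated exon): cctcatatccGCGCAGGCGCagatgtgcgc
Ndufs6 (chr13:73328483-73328508, minus strand, in an annotated exon): cgactgctgtGCGCCTGCGCcggcac
Ndufaf4 (chr4:24897960-24897989, plus strand, outside the annotated gene): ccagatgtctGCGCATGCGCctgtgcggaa

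The motif AAGATGGCG of YY1, a zinc finger factor, occurred in 6 of the 40 members (15.0%), against 4.2% of tested genes and 1.64% of all genes. All 6 matches were in the direction of the gene and began 11 to 36 bases after the start, and in 5 of them the ATG inside the motif was the annotated start codon, Ndufaf8 being the exception. The sequences are printed with the motif in capitals because each match lies inside the transcribed gene.
Ndufa9 (chr6:126849097-126849125, minus strand): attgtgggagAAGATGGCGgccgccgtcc
Ndufc1 (chr3:51408915-51408943, minus strand): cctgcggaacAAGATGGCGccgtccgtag
Ndufs4 (chr13:114388045-114388069, minus strand): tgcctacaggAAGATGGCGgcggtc
Ndufs6 (chr13:73328433-73328459, minus strand): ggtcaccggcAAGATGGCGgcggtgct
Ndufs7 (chr10:80249463-80249491, plus strand): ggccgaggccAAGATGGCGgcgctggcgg
Ndufaf8 (chr11:120098934-120098962, plus strand): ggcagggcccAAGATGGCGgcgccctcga

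Other motifs were no more frequent among the members than among tested genes. The GABP motif CCGGAAG occurred in 15.0% of members and 23.2% of tested genes, and the SP1 motif GGGCGG in 52.5% and 69.2%. The GATA1 motif AGATAA occurred in 2 members, Ndufa12 and Ndufc2, or 5.0% against 7.77%. The ESRRA motif TCAAGGTCA occurred in 0 members and 0.306% of tested genes. The median GC content of the windows was 59.5% in members and 62.0% in tested genes. These shares describe the letters in the windows, were not tested, and say nothing of binding.

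The core subunits of the matrix arm carry the electron path. Of these 7 genes, 6 fell and Ndufs1 did not pass, with a median log2 fold change of -0.24, where 17.8% of all genes tested fell. With the trends with exonic length and GC content removed 2 fell (median -0.09), against 16.0% of all genes. On the principal transcript 1 fell (median -0.08), against 13.1%. Ndufv1 encodes the subunit that binds flavin mononucleotide and oxidizes NADH, and Ndufv2 and Ndufs1 encode its partners in the NADH-oxidizing tip. Ndufv2 (chr17:66078638-66101559) had 119, 118 and 116 CPM in CTRL libraries 1 to 3 and 90.6, 95.8 and 102 CPM in CHD4-APR, the largest fall of the core (log2 fold change -0.29, SE 0.0485, adjusted p = 0.000223). The CTRL libraries of Ndufv2 lay within a few CPM of each other and well above all CHD4-APR libraries. Ndufv1 (chr19:4007384-4012806) had 155, 153 and 157 CPM in CTRL and 130, 139 and 139 CPM in CHD4-APR, the smallest change of the 6 core genes that fell (-0.19, SE 0.0435, adjusted p = 0.00273).

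Ndufs1, which encodes the largest subunit of the matrix arm and holds several iron-sulfur clusters, stood apart from its partners. Its CTRL libraries had 159, 174 and 172 CPM and its CHD4-APR libraries 178, 182 and 185 CPM, so that all CHD4-APR libraries lay above all CTRL libraries. The difference did not pass (log2 fold change 0.11, SE 0.0457, adjusted p = 0.0598; chr1:63143596-63176833), and its direction depended on the setting. It passed as higher when libraries were scaled by total counts (0.16, adjusted p = 0.0196), whereas the estimate turned to -0.09 when trends with exonic length and GC content were removed (adjusted p = 0.0687). Its exons overlap those of a long non-coding RNA on the opposite strand, Ino80dos, over 489 bases, and the kit does not mark strand. That RNA was at 2.68 CPM in CTRL and 2.96 CPM in CHD4-APR.

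Ndufs3, Ndufs7 and Ndufs8 encode subunits on the path from the NADH-oxidizing tip to quinone, and all 3 genes fell. Ndufs7 (chr10:80249121-80256794), which holds the last iron-sulfur cluster before quinone, had 67.9, 64.6 and 65.1 CPM in CTRL and 53.8, 56.7 and 56.3 CPM in CHD4-APR (-0.24, SE 0.0484, adjusted p = 0.000901). The groups of Ndufs7 were apart. Ndufs8 (chr19:3908863-3912774), which holds a pair of iron-sulfur clusters, had 77.8, 73.7 and 74.6 CPM in CTRL and 59.0, 60.8 and 68.0 CPM in CHD4-APR (-0.27, SE 0.0555, adjusted p = 0.00129). Ndufs3 (chr2:90894634-90904827) had 121, 119 and 115 CPM in CTRL and 98.0, 99.3 and 104 CPM in CHD4-APR (-0.24, SE 0.0451, adjusted p = 0.000615). CHD4-APR 3 was the library closest to CTRL for Ndufs8 and Ndufs3, and the groups did not overlap in either. With the trends with exonic length and GC content removed, Ndufs7 (-0.08, adjusted p = 0.157) and Ndufs8 (-0.09, adjusted p = 0.174) did not pass. On the principal transcript none of the 3 genes passed, Ndufs3 being at -0.08 (adjusted p = 0.116).

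All 9 accessory subunit genes of the matrix arm fell, with a median log2 fold change of -0.26 and a range from -0.40 to -0.19, where 17.8% of all genes tested fell. Ndufa5 (chr6:24518666-24528013) fell most, from 37.8, 35.4 and 33.9 CPM in CTRL to 24.5, 27.5 and 28.9 CPM in CHD4-APR (-0.40, SE 0.0682, adjusted p = 0.000248). Ndufa6 encodes a small protein that binds the mitochondrial acyl carrier protein. It had 361, 311 and 321 CPM in CTRL and 270, 275 and 286 CPM in CHD4-APR (-0.26, SE 0.0523, adjusted p = 0.00114). Neither gene's groups overlapped. Ndufs4, whose loss causes a Leigh-like encephalopathy in mice, fell by 0.24 and Ndufa9, whose product sits where the arms join, by 0.19 on the log2 scale. Ndufs6, which binds zinc, had CTRL libraries at 32.7, 28.7 and 24.8 CPM and CHD4-APR libraries at 24.2, 24.0 and 24.6 CPM (-0.24, SE 0.0808, adjusted p = 0.0249). With the trends with exonic length and GC content removed it did not pass (-0.13, adjusted p = 0.247), nor did it on the principal transcript (-0.04, adjusted p = 0.723), where Ndufa6 did not pass either (-0.08, adjusted p = 0.163). The CTRL libraries of Ndufs6 were widely spread, and the lowest of them lay only just above the CHD4-APR libraries. Of the 9 genes, 7 fell with the exonic trends removed and 6 on the principal transcript, against 16.0% and 13.1% of all genes.

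Among the 19 accessory subunit genes of the membrane arm, 17 fell and Ndufb6 and Ndufc2 did not pass, with a median of -0.26, where 17.8% of all genes tested fell. The largest falls of all members were here. With the trends with exonic length and GC content removed 13 of the 19 fell (median -0.23), against 16.0% of all genes. On the principal transcript 10 fell and Ndufc2 rose (median -0.13), where 13.1% of all genes fell and 9.96% rose. Ndufs5 (chr4:123712710-123718202), whose promoter site is printed above, had 40.2, 35.7 and 35.6 CPM in CTRL and 24.5, 26.6 and 29.6 CPM in CHD4-APR, or 72.5% of the CTRL level (-0.46, SE 0.0727, adjusted p = 0.00013). Ndufa3 (chr7:3617373-3620327) had 91.7, 81.2 and 82.3 CPM in CTRL and 60.1, 61.0 and 65.3 CPM in CHD4-APR (-0.45, SE 0.0554, adjusted p = 1.42e-05). Ndufa13 (chr8:69894180-69902558), also known as GRIM-19, had 133, 112 and 119 CPM in CTRL and 86.2, 89.8 and 96.3 CPM in CHD4-APR (-0.42, SE 0.0595, adjusted p = 5.36e-05). It shares 30.0% of its exonic bases with Tssk6 on the opposite strand, a gene too low in counts to be tested. In all 3 genes CTRL 1 was the highest library, CHD4-APR 1 the lowest, and the groups were apart. Ndufa2, of the matrix arm, was the remaining gene among the 5 largest falls of subunits, from 78.6, 73.7 and 71.4 CPM to 55.6, 55.6 and 60.5 CPM (-0.38, SE 0.0533, adjusted p = 4.72e-05).

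The 2 membrane arm genes that did not pass had unlike libraries. For Ndufc2 (chr7:97400003-97407802) the libraries were intermixed, with 65.7, 61.1 and 62.8 CPM in CTRL and 60.9, 66.6 and 63.4 CPM in CHD4-APR (log2 fold change 0.01, SE 0.0511, adjusted p = 0.902). For Ndufb6 (chr4:40270591-40279421) all CHD4-APR libraries, at 30.6, 32.1 and 32.2 CPM, lay below the CTRL libraries, at 33.2, 34.6 and 36.0 CPM (-0.13, SE 0.0571, adjusted p = 0.0838). Ndufb6 shares 39.0% of its exonic bases with Smim27 on the opposite strand, which had 5.88 CPM in CTRL and 5.18 CPM in CHD4-APR. The X-linked genes Ndufa1 and Ndufb11 fell with the rest, to 79.0% and 85.5% of their CTRL levels.

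A further pair of genes belongs to neither arm alone. Ndufab1 encodes the mitochondrial acyl carrier protein, which is present in both arms and also serves fatty acid synthesis. It had 70.4, 64.3 and 66.5 CPM in CTRL and 56.8, 54.6 and 58.6 CPM in CHD4-APR (-0.24, SE 0.0513, adjusted p = 0.00148). Ndufa4, first assigned to complex I and now placed in complex IV, had 107, 104 and 94.7 CPM in CTRL and 80.3, 84.6 and 89.1 CPM in CHD4-APR (-0.27, SE 0.0544, adjusted p = 0.0011). The groups did not overlap for either. Without Ndufa4, 33 of 36 subunit genes fell and the median was again -0.25.

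The assembly factors moved less evenly than the subunits. Of the 8 genes 4 fell, Ndufaf8, Ndufaf2, Ndufaf6 and Ndufaf3, and 4 did not pass, although all 8 log2 fold changes were below 0. Their median was -0.18, which is 11.6% lower, with a middle 50% that spanned 0.2618 log2 units, against 0.1338 for the subunits. They also rested on fewer reads, with a median of 9.72 CPM in CTRL against 94.1 CPM for subunits, and their standard errors were larger, with a median of 0.0926 against 0.0535. Which of them passed depended on the trends with length and GC content. With exonic length and GC content as offsets 3 fell, Ndufaf2 (-0.36, adjusted p = 0.0334), Ndufaf4 (-0.31, adjusted p = 0.00795) and Ndufaf7 (-0.22, adjusted p = 0.0317). Ndufaf8 (-0.19, adjusted p = 0.153), Ndufaf6 (-0.24, adjusted p = 0.176) and Ndufaf3 (-0.05, adjusted p = 0.524) then no longer passed. On the principal transcript Ndufaf4 alone fell (-0.38, adjusted p = 0.00283). Over all genes tested 17.8% fell, 16.0% with the first offsets and 13.1% on the principal transcript, so that 1 of 8 there is at the background. The median of the subunits was 0.07 log2 units below that of the assembly factors, a difference that was not tested and that became 0.03 in the other direction when length and GC trends of the principal transcript were removed.

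NDUFAF8 stabilizes NDUFAF5, an enzyme that hydroxylates an arginine of NDUFS7. Ndufaf8 (chr11:120098928-120100705) had 11.3, 9.96 and 8.79 CPM in CTRL and 7.69, 6.95 and 8.30 CPM in CHD4-APR (-0.39, SE 0.103, adjusted p = 0.0072). Ndufaf5 (chr2:140170649-140203689) had 4.04, 3.30 and 3.82 CPM in CTRL and 3.51, 4.00 and 3.58 CPM in CHD4-APR (-0.0055, SE 0.128, adjusted p = 0.977), and the sign of its estimate changed under several alternatives. The Ndufaf8 groups were apart, whereas those of Ndufaf5 were intermixed. Whether the 2 changes differ was not tested.

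NDUFAF3 and NDUFAF4 act together on the quinone module. Ndufaf3 (chr9:108565537-108567434) had 33.9, 31.8 and 30.4 CPM in CTRL and 26.1, 27.0 and 29.0 CPM in CHD4-APR (-0.23, SE 0.0638, adjusted p = 0.0102). Ndufaf4 (chr4:24898083-24905001), whose promoter site is printed above, had 9.33, 9.60 and 9.37 CPM in CTRL and 9.37, 8.89 and 8.85 CPM in CHD4-APR (-0.06, SE 0.0816, adjusted p = 0.587). The groups of Ndufaf3 did not overlap and those of Ndufaf4 did. With the length and GC trend removed the order was turned around, Ndufaf3 at -0.05 no longer passing and Ndufaf4 at -0.31 passing.

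NDUFAF2 is a paralog of NDUFA12 that holds its place during assembly. Ndufaf2 (chr13:108002715-108158623) had 6.68, 6.10 and 5.27 CPM in CTRL and 4.21, 4.47 and 5.25 CPM in CHD4-APR (-0.37, SE 0.121, adjusted p = 0.0222), the highest CHD4-APR library lying just under the lowest CTRL library. A non-coding gene on the opposite strand, B230220B15Rik, covers 65.6% of its exonic bases. Ndufaf6 (chr4:11051045-11076205) had the fewest reads of all members, 902 over the 6 libraries, with 3.78, 3.73 and 3.86 CPM in CTRL and 3.20, 2.88 and 2.80 CPM in CHD4-APR (-0.36, SE 0.126, adjusted p = 0.0336). Its groups did not overlap, although at 123 to 184 reads per library the closeness of its CTRL libraries carries little weight.

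NDUFAF7 is a methyltransferase, and NDUFAF1 is part of the complex that assembles the membrane arm. Ndufaf7 (chr17:78937136-78948052) had 12.7, 13.4 and 12.8 CPM in CTRL and 11.3, 11.4 and 12.8 CPM in CHD4-APR (-0.13, SE 0.079, adjusted p = 0.214). Ndufaf1 (chr2:119655446-119662827) had 25.2, 23.6 and 20.2 CPM in CTRL and 21.0, 23.0 and 19.9 CPM in CHD4-APR (-0.11, SE 0.0818, adjusted p = 0.308). The groups overlapped in both genes. The count of 4 assembly factor genes that fell became 2 without CTRL 1, without CHD4-APR 1 or without CHD4-APR 2, and 3 without any other library.

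**Figure D2:**
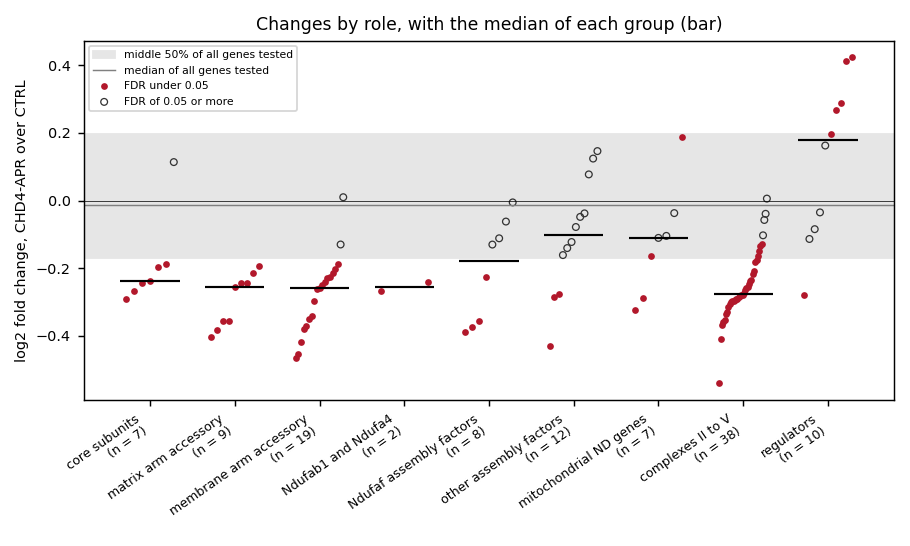
Log2 fold change of CHD4-APR over CTRL for each gene (points, filled where the FDR was under 0.05), grouped by role, with the median of each group as a bar and the middle 50% of all genes tested as a grey band. The core and accessory subunit groups have medians between -0.26 and -0.24, the Ndufaf genes -0.18 and the regulators 0.18.

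Assembly factors named otherwise were also examined. Of 13 listed, 12 passed the filter on low counts, 3 of those 12 fell, where 17.8% of all genes tested did, none rose and the median was -0.10. That count is not far from the background. Ecsit, which works with NDUFAF1, had 23.6, 22.1 and 22.3 CPM in CTRL and 17.3, 16.8 and 16.4 CPM in CHD4-APR, the largest fall of this group (-0.43, SE 0.0655, adjusted p = 0.000103). Dmac1 (-0.28) and Tmem126a (-0.27) also fell. With the length and GC trends removed, 5 of the 12 fell with all exons and 5 with the principal transcript, against 16.0% and 13.1% of all genes. Dmac1 fell only with all exons (-0.15, adjusted p = 0.0368), being at -0.14 on the principal transcript (adjusted p = 0.0606). Tmem186 fell only on the principal transcript (-0.16, adjusted p = 0.0396). Timmdc1 alone rose under both (0.18, adjusted p = 0.0256, and 0.16, adjusted p = 0.042), where 11.7% and 9.96% of all genes did. Acad9, another partner of NDUFAF1, lay the other way, with 18.4, 18.6 and 19.1 CPM in CTRL and 21.3, 20.3 and 20.5 CPM in CHD4-APR, but did not pass (0.15, adjusted p = 0.0821). With the trends removed Acad9 was at 0.0032 with all exons (adjusted p = 0.975) and 0.03 with the principal transcript (adjusted p = 0.798).

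The 7 core subunits of the membrane arm encoded by mitochondrial DNA did not follow the nuclear subunits in every gene. Of these, mt-Nd3, mt-Nd6 and mt-Nd2 fell, mt-Nd4l rose, and mt-Nd1, mt-Nd4 and mt-Nd5 did not pass, with a median of -0.11, where 17.8% of all genes tested fell and 20.4% rose. mt-Nd3 had 310, 287 and 266 CPM in CTRL and 217, 226 and 247 CPM in CHD4-APR (-0.32, SE 0.0576, adjusted p = 0.000371). mt-Nd4l had 464, 482 and 478 CPM in CTRL and 543, 533 and 546 CPM in CHD4-APR (0.19, SE 0.0403, adjusted p = 0.00161). Its groups were apart in the opposite direction to those of mt-Nd3. mt-Nd6, the only one of the 7 read from the other strand of the mitochondrial genome, had 29.8, 32.4 and 31.2 CPM in CTRL and 25.4, 24.0 and 27.2 CPM in CHD4-APR (-0.29, SE 0.0639, adjusted p = 0.00212). Since the kit does not mark strand, reads from RNA of the opposite strand may be counted in mt-Nd6. mt-Nd2 was at -0.17 (adjusted p = 0.0141), mt-Nd1 at -0.11 (adjusted p = 0.0769), mt-Nd4 at -0.10 (adjusted p = 0.0782) and mt-Nd5 at -0.04 (adjusted p = 0.517), the last turning to 0.00797 when libraries were scaled by total counts. With the trends with length and GC content removed, 6 of the 7 fell and mt-Nd4l again rose, against 16.0% and 11.7% of all genes, and the median was -0.33, beside -0.21 for the nuclear subunits under the same setting. The genes that then passed were, beside mt-Nd2, mt-Nd3 and mt-Nd6, mt-Nd1 at -0.29 (adjusted p = 0.000646), mt-Nd4 at -0.33 (adjusted p = 0.000188) and mt-Nd5 at -0.27 (adjusted p = 0.000258). The transcripts of the 7 genes had a median GC content of 35.7%, against 50.1% over all genes tested. The trend was fitted over all genes, and whether it holds for mitochondrial transcripts was not tested. Whether the ND genes and the nuclear subunits differ was not tested either. mt-Nd4l and mt-Nd4 lie on a shared transcript, so reads across their junction could be split by the counting.

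The nuclear genes of the other oxidative phosphorylation complexes were close to the complex I subunits in count and size. Of 38 genes of complexes II to V, 34 fell and none rose, where 17.8% and 20.4% of all genes tested did, and the median was -0.28 against -0.25 for the complex I subunits. The difference was not tested. With the length and GC trends removed 28 fell with all exons (median -0.18) and 22 with the principal transcript (median -0.13), against 16.0% and 13.1% of all genes. Atp5k, a membrane subunit of the ATP synthase, had the largest fall, from 63.2, 53.3 and 57.6 CPM to 33.0, 40.6 and 46.0 CPM (-0.54, SE 0.0903, adjusted p = 0.000224). The 4 genes that did not pass were Sdha of complex II at -0.04, Uqcrc2 of complex III at 0.0058, and Atp5a1 and Atp5b of the ATP synthase at -0.06 and -0.10.

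Regulators known for respiratory gene expression were measured in the same libraries. Of 11 listed, 10 passed the filter, 5 rose and 1 fell, where 20.4% and 17.8% of all genes tested did. Yy1, whose motif is printed above, had 69.7, 74.3 and 73.1 CPM in CTRL and 99.3, 96.5 and 93.0 CPM in CHD4-APR (0.41, SE 0.0474, adjusted p = 8.21e-06). Gabpa, the DNA-binding subunit of GABP, had 26.3, 28.8 and 26.3 CPM in CTRL and 36.0, 37.7 and 35.7 CPM in CHD4-APR (0.42, SE 0.0598, adjusted p = 5.06e-05). All CHD4-APR libraries lay above all CTRL libraries for both. Sp1 (0.29), Gabpb2 (0.27) and Gabpb1 (0.20) also rose. Esrra, an orphan nuclear receptor that acts on mitochondrial genes, fell from 20.3, 17.4 and 18.0 CPM to 16.3, 14.6 and 14.9 CPM (-0.28, adjusted p = 0.00932), and Nrf1 was at -0.11 (adjusted p = 0.0918).

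Among these regulators, Yy1 kept its call when the trends with length and GC content were removed, at 0.37 with all exons (adjusted p = 2.08e-05) and 0.28 with the principal transcript (adjusted p = 0.000102). Gabpa went to 0.18 (adjusted p = 0.0172) and 0.10 (adjusted p = 0.169). Gabpb1 (0.0063 and 0.07), Sp1 (0.04 and -0.06) and Gabpb2 (-0.02 and -0.04) did not pass under either. Esrra was at -0.28 (adjusted p = 0.00866) and -0.16 (adjusted p = 0.0996). Nrf1 passed as lower with all exons (-0.35, adjusted p = 4.69e-05) but not with the principal transcript (-0.03, adjusted p = 0.641). The median of the 10 genes went from 0.18 to 0.02 and -0.04, and the number that rose from 5 to 2 and 1, which is near the 11.7% and 9.96% of all genes that rose under these settings.

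The members share short transcripts, and in these libraries fold changes followed transcript length. The principal transcripts of the subunit genes had a median length of 908 bases, those of the assembly factors 1308.5 bases and those of all genes tested 2538 bases. Over all genes tested, the median log2 fold change was -0.168 in the group with the shortest principal transcripts when genes were cut into 4 equal groups, -0.0812 in the next, 0.019 in the next and 0.184 in the group with the longest. Of the 37 subunit genes, 27 lay in the shortest group and 7 in the next, and their medians there, -0.259 and -0.203, were below those of all genes of like length. Fold changes also ran with GC content, from a median of 0.204 in the group with the least GC to -0.15 in that with the most, whereas the subunits stayed between -0.26 and -0.205 in all 4 groups. Across genes, Spearman's rho of fold change and length was 0.447 over all 12677 genes with a length and 0.318 over the 37 subunits, and with GC content -0.468 and -0.0744; genes of the same libraries are not independent and no p is given.

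**Figure D3:**
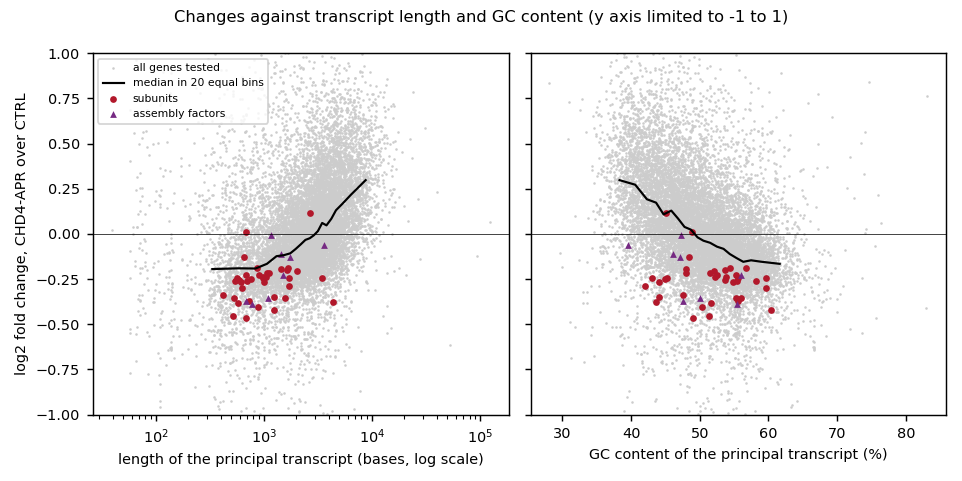
Log2 fold change against the length (left, log scale) and GC content (right) of the principal transcript for all genes tested (grey), complex I subunits (red circles) and Ndufaf assembly factors (purple triangles), with the median of all genes in 20 equal bins as a line. The line climbs with length and descends with GC content, and the subunits lie between -0.46 and 0.11.

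Removing this trend per library left a fall in most subunits, and fewer passed. With length and GC content of all annotated exons as offsets, 24 of 37 subunit genes fell and none rose, against 16.0% and 11.7% of all genes, and the median was -0.21. With the principal transcript in their place, 19 fell, Ndufc2 rose and the median was -0.13, against 13.1% and 9.96% of all genes. Of the 7 core genes only Ndufv2 (-0.41) and Ndufs3 (-0.11) still fell under the first setting, and the core median went from -0.24 to -0.09. On the principal transcript Ndufv2 alone fell (-0.40), Ndufs3 being at -0.08 (adjusted p = 0.116), and the core median was -0.08. Ndufs7 (-0.08), Ndufs8 (-0.09) and Ndufv1 (-0.04) no longer passed under the first. Of the accessory genes, 7 of 9 in the matrix arm and 13 of 19 in the membrane arm fell under the first setting, with medians of -0.23 in both, and 6 and 10 on the principal transcript, with medians of -0.16 and -0.13. Whether core and accessory genes differ in this was not tested. Ndufab1 and Ndufb2, whose annotated principal transcripts of 3479 and 4371 bases are the longest among the subunits, moved further down, to -0.42 and -0.56 under the first setting and to -0.41 and -0.61 on the principal transcript. The source of the trend was not tested.

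**Figure D4:**
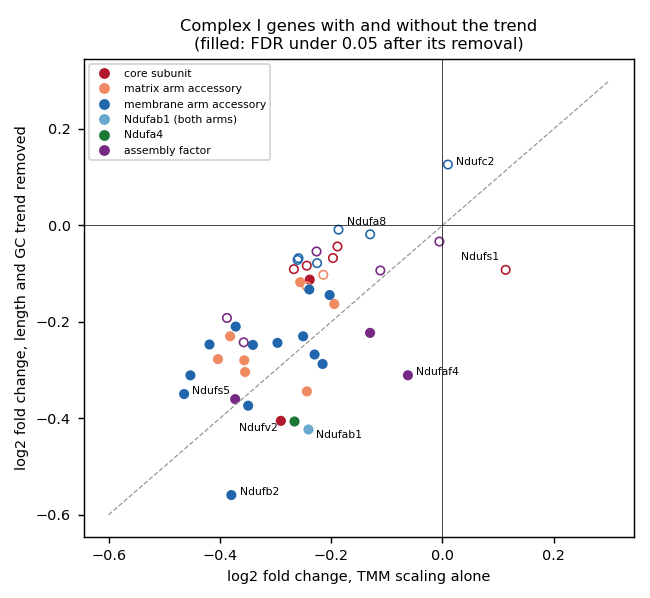
Log2 fold change of each complex I gene with TMM scaling alone (x axis) and after the trends with exonic length and GC content were removed (y axis), with filled circles where the FDR was under 0.05 after removal and a dashed line where both are equal. Ndufs1 goes from 0.11 to -0.09, and Ndufv2, Ndufab1 and Ndufb2 lie below the line.

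Of the 38 members that fell, 18 passed in the same direction under every setting run, and 32 did so when the length and GC settings were left aside. None of the 38 turned its sign under any setting. The 18 were Ndufa1, Ndufa2, Ndufa3, Ndufa4, Ndufa5, Ndufa7, Ndufa9, Ndufa10, Ndufa13, Ndufab1, Ndufb3, Ndufb5, Ndufb10, Ndufc1, Ndufs4, Ndufs5, Ndufv2 and Ndufv3.

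Single libraries decided the call of 6 members that fell. Ndufs6 no longer passed without CTRL 1 or without any of the CHD4-APR libraries, with log2 fold changes of -0.34 to -0.14 as each library was left out in turn. Ndufaf6 passed only with all libraries or without CHD4-APR 1 (-0.41 to -0.31), and Ndufaf2 did not pass without CTRL 1, CHD4-APR 1 or CHD4-APR 2 (-0.47 to -0.29). Ndufa8 did not pass without CHD4-APR 1 or CHD4-APR 2 (-0.23 to -0.15). Ndufb2 (-0.47 to -0.30) and Ndufaf3 (-0.27 to -0.18) did not pass without CHD4-APR 1. In the other direction, Ndufb6 passed as lower without CTRL 1 (-0.16 to -0.10), and Ndufs1 passed as higher without CTRL 2 (0.07 to 0.14).

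The subunits of this enzyme, made in fixed ratio in the finished complex, were not equal in RNA. Per kilobase of principal transcript, Ndufa6 was highest in CTRL at 561 ± 44.6 CPM per kb (SD, n = 3), followed by Ndufb10 at 361 ± 19.3 and Ndufb9 at 257 ± 12.0. The next, Ndufa7 at 241 ± 21.7 CPM per kb, did not differ from Ndufb9 beyond the spread of the libraries. Core subunits lay in the middle of the order, from Ndufs3 at 113 ± 2.83 to Ndufs1 at 63.1 ± 3.10 CPM per kb. The median level was 93.4 CPM per kb for subunits and 8.14 CPM per kb for assembly factors in CTRL, and 81.9 and 6.81 CPM per kb in CHD4-APR. Of the 44 pairs of neighbours in the CTRL order, 23 overlapped. The order was nearly kept in CHD4-APR, the largest shift being that of Ndufs1, from rank 28 to rank 22. Ndufb2, lowest at 1.68 ± 0.135 CPM per kb, is placed there partly by its long annotated transcript, but also had the fewest reads of the subunits, at 7.34 CPM in CTRL. It shares 146 exonic bases with Braf on the opposite strand, which rose (0.45). It also shares 156 with Gm16272 on the opposite strand and 145 with Gm42420 on its own strand. Ndufb9 shares 19.5% of its exonic bases with Gm49356 on its own strand. Whether shared bases affect these levels was not tested.

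**Figure D5:**
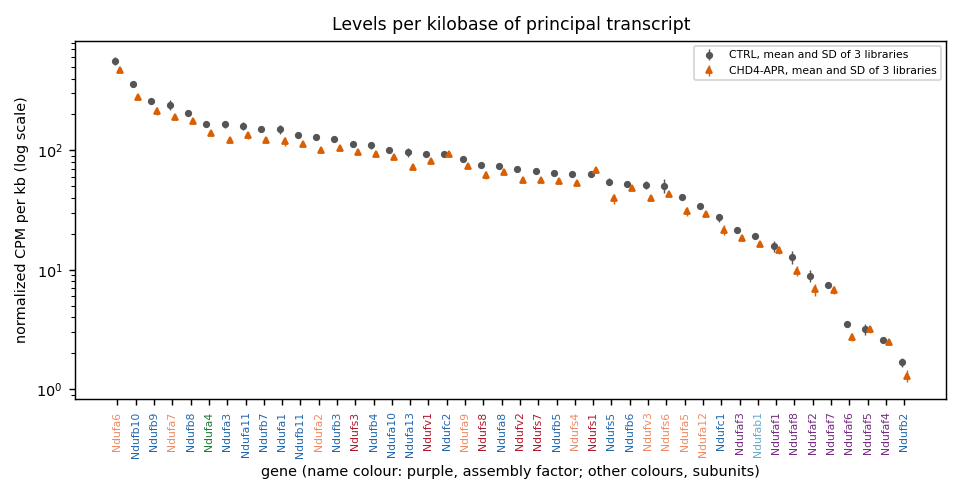
Level per kilobase of principal transcript (normalized CPM per kb, log scale) of 44 complex I genes in CTRL (grey circles) and CHD4-APR (orange triangles), mean and SD of 3 libraries, ordered by CTRL. Subunits spread from 561 to 1.68 CPM per kb and the assembly factors, with purple names, lie at the low end.

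The fall of the complex I genes ran beside a fall of the globins in these cells. Hbb-bs, the most abundant marker, had 26400, 24100 and 23800 CPM in CTRL and 19200, 19000 and 21000 CPM in CHD4-APR (-0.33, SE 0.0527, adjusted p = 0.000168), and CTRL 1 and CHD4-APR 3 were the highest of their groups, as they were for most subunits. Hbb-bt (-0.32), Hba-a1 (-0.25), Hba-a2 (-0.24) and the erythroid factor gene Klf1 (-0.17) also fell, while Gata1 (0.21) and the transferrin receptor gene Tfrc (0.26) rose. With the length and GC trends of all exons removed, Hbb-bs and Hbb-bt still fell, both at -0.18, and Gata1 still rose (0.35). Hba-a1 (-0.05, adjusted p = 0.336), Hba-a2 (-0.03, adjusted p = 0.546) and Klf1 (-0.0075, adjusted p = 0.907) then no longer passed, and Tfrc turned to -0.03 (adjusted p = 0.72). With the hemoglobin genes left out of the fit, the calls of all 45 members were as before. The part of cell state in the change of the complex I genes was not tested.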

How the data were processed

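RNA was sequenced from 6 libraries, 3 of CHD4-APR and 3 of CTRL, grouped by their labels. The authors trimmed reads with Cutadapt, mapped them to GRCm38 (STAR 2.7.10a, Ensembl release 86) and assigned them to genes with featureCounts. The deposited values are raw counts, not scaled by the authors. The handling of strand and of multiply mapping reads is not given in the sources used here. Another 2 columns of the table belong to no sample of the series and were not used.

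Genes were filtered with filterByExpr, scaled by TMM and tested with the two-sided edgeR 4.0.16 quasi-likelihood F-test (R 4.3.3) with Benjamini-Hochberg adjustment over all 12722 genes tested and an FDR threshold of 0.05. Gene models were GENCODE release 21 for the mouse, which held 48349 of the 48709 identifiers. CPM are TMM-normalized, and levels per kb use the APPRIS principal transcript. Depth gave each subunit 1737 to 81251 reads and each assembly factor 902 to 7953 over the 6 libraries. DESeq2 1.42.0, limma-voom 3.58.1, other scalings and filters, a replicate block, leaving out each library and offsets from a smooth of length and GC content (mgcv 1.9.3, basis dimension 30) were alternatives. No replicates were copies of each other.

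The members and gene lists were chosen with earlier results of these data known. Named in full were the core subunits except 1 gene that is not reported here by name, the Ndufaf genes, the 5 largest falls and members that did not pass, and, of other lists, genes with an FDR under 0.05 and the mitochondrial ND genes, except that Atp5k stands for the 34 such genes of complexes II to V. Ndufa6, Ndufs6, Ndufab1 and Ndufa4, genes of other lists that did not pass, and the motif spellings were added after values were seen. No p-value is given over a list, since members are not replicates.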

Additional observations from a re-analysis of the deposited data

How the results depend on the processing

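None of the 38 members that fell changed sign under any alternative, whereas the counts depended on the length and GC settings. The subunit genes that fell numbered 31 to 34 with any library left out, with medians of -0.28 to -0.22. On the principal transcript, a setting added after the data were seen, they numbered 19, with a median of -0.13. The assembly factor genes that fell numbered 2 to 3 with a library left out, 1 at an FDR under 0.01 and 1 on the principal transcript. The subunit minus assembly factor difference of medians, -0.07, was -0.00243 with the length and GC correction, -0.00206 with it and the replicate block, and 0.0331 on the principal transcript.

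Over all genes, total count scaling gave 1474 lower and 2959 higher against 2270 and 2601, and an FDR under 0.01 gave 1308 lower. The length and GC correction gave 1477 higher, 1678 with the replicate block and 1262 on the principal transcript, which called 2921 genes in all. No scaling moved the median of all genes by 0.1 on the log2 scale.

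For other lists, in the order of the length and GC correction, the same with the replicate block and the principal transcript, the mitochondrial ND genes lower were 6, 6 and 6 (5 with upper quartile scaling and 5 with no filter) with medians of -0.33, -0.33 and -0.36. Other assembly factors lower were 5, 5 and 5, beside Timmdc1, which rose under all 3, with medians of -0.0773 and -0.0775 under the first pair, -0.1174 with upper quartile scaling, -0.0554 with total count scaling and -0.1136 to -0.0836 with a library left out. Complexes II to V had 22 genes lower on the principal transcript, medians of -0.1796, -0.1795 and -0.1314, and -0.2921 to -0.2169 with a library left out. Regulators higher were 2, 2 and 1, with medians of 0.0248, 0.025 and -0.0351. The cause of these shifts was not tested.

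Signs also turned in single genes. Ndufs1 was -0.0922, -0.0925 (adjusted p = 0.0458, passing as lower) and -0.0031 in the same order, but passed as higher with total count scaling (0.16, adjusted p = 0.0196) and without CTRL 2. Tfrc was -0.0271, -0.0257 and -0.0956, losing its call. Ndufaf5 was 0.000306 with limma-voom, 0.0398 with total count scaling, 0.0416 on the principal transcript and -0.0893 to 0.0578 with a library left out, including 0.0137, 0.0333 and 0.0238. Ndufc2 was -0.0073 with upper quartile scaling and -0.0213 to 0.0441 with a library left out, including -0.0151. Ndufb6 was 0.0021, Atp5g2 0.0277, Sp1 -0.0645 and Chd4 -0.031 on the principal transcript, Gabpb2 was -0.016, -0.0152 and -0.0354, Uqcrc2 was -0.0544, -0.0549 and -0.0648, -0.0112 with upper quartile scaling and, with a library left out, -0.012 to 0.027, including -0.0042, Atp5a1 was 0.0505 and 0.0506 under the first pair, and with total count scaling mt-Nd5 was 0.00797 and Sdha 0.0059.

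Whether equal replicate numbers pair the libraries is not known. The correlations of same-numbered deviations were 0.0697, 0.0552 and -0.035, and those of unlike numbers lay between -0.0808 and 0.0338. With the replicate block 5214 genes were called, 34 subunit genes fell and Ndufs1 rose (0.11, adjusted p = 0.0438), and 4 assembly factor genes fell.

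DESeq2 lost Ndufaf6 alone among the members that fell. Depth was lowest for Ndufaf6, at 123 to 184 reads per library, and each group had 3 libraries.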
